A study of Mus musculus with 8 samples.

Results

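Back skin of Balb/c mice that received the hapten DNCB (2,4-dinitrochlorobenzene) together with a gel holding HY209 was compared with skin of sham animals, to describe what still differed from sham after the gel. All probe sets of the array other than the manufacturer's controls were taken, 45037 of 45101 in the table, on 5 of the 8 arrays: DNCB+HY209 replicates 1 to 3 and sham replicates 1 and 2. The gel-treated animals had DNCB for 15 days and a polyethylene glycol gel with 5% HY209 over the last 7 of them. The remaining group, DNCB (3 arrays), had the same course of DNCB and the gel's vehicle without HY209. Sham skin had neither DNCB nor HY209 according to the titles and source names, although the protocol fields of the sham samples carry the DNCB wording. The labels give neither the animals' age nor whether each array is 1 animal, and the p-values therefore reflect only how these 8 samples scattered, which may be technical. Total RNA came from whole frozen skin and was hybridised as biotin-labelled copies primed at the 3' end.

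DNCB binds covalently to skin proteins, and repeated painting produces a contact hypersensitivity that is widely used as a mouse model of eczema. Stressed or wounded keratinocytes, the epithelial cells of the epidermis, replace part of their resting keratin program with the stress keratins, release S100 alarm proteins and build small proline-rich proteins into the cornified layer. HY209 is known as an agonist of GPCR19, a cell surface receptor for bile acids encoded by Gpbar1 that dampens inflammasome and NF-kB signalling in myeloid cells. No probe set listed for Gpbar1 was analysed here, so the level of the receptor is not given.

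Values are log2 signal, on which a difference of 1 is a doubling. Array medians lay between 4.07 and 4.21 on all 8 arrays. The 2 sham arrays correlated at 0.966 over all probe sets, the gel-treated arrays at 0.967 to 0.986 among themselves, and sham replicate 1 with DNCB+HY209 replicate 1 at 0.975. The mean of 7 bacterial spike-in probe sets, which report added control RNA rather than skin RNA, was 10.99 and 11.62 in sham. It was 10.89, 9.97 and 9.87 in gel-treated skin, so both sham arrays lay above all 3. The part of this technical difference in the results was not tested beyond the fit that holds it as a covariate. The signal ratio of the 3' to the 5' Gapdh control probe set also varied between arrays. It was 4.5 and 2.8 in sham, 3.2, 2.6 and 2.3 in gel-treated skin, and 2.8, 2.1 and 7.3 in DNCB skin. The basal epidermal keratins that mark skin were bright on every array: Krt14 lay between 12.31 and 14.22.

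Gel-treated skin still carried a strong stress program of the epidermis. Signal for the stress keratins Krt6b and Krt16 was 316-fold and 141-fold that of sham, and that of the cysteine protease inhibitor Stfa3 71.0-fold. The cornified envelope precursor Sprr1b was 6.49 higher on the log2 scale. Several interferon-induced genes were also higher, and the genes that were lower included hair shaft proteins, a pair of cytochrome P450 enzymes and the keratin Krt77. In a limma fit of all 8 arrays, 70 probe sets passed an adjusted p of 0.05 (0.155% of those tested), 50 higher (0.111%) and 20 lower (0.0444%), and 7451 had an unadjusted p under 0.05 (16.5%). Of the 70, 10 had several gene symbols or none and are not named. Among those 10 was the lowest adjusted p of all (9.83e-06, difference 5.89) and a difference of -4.54. At least 1 called probe set was found for 56 genes. Those with a call only outside their brightest probe set included Clcf1 (3.76), Enah (3.24 and 2.96) and Hmgcs1 (-1.58). Taking for each gene its brightest probe set with 1 gene symbol, 44 of 18193 genes passed (0.242%), 30 higher (0.165%) and 14 lower (0.0770%). The gel-treated arrays did not overlap the sham arrays for any of the 44, which held for 7107 of all genes (39.1%).

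**Figure D1:**
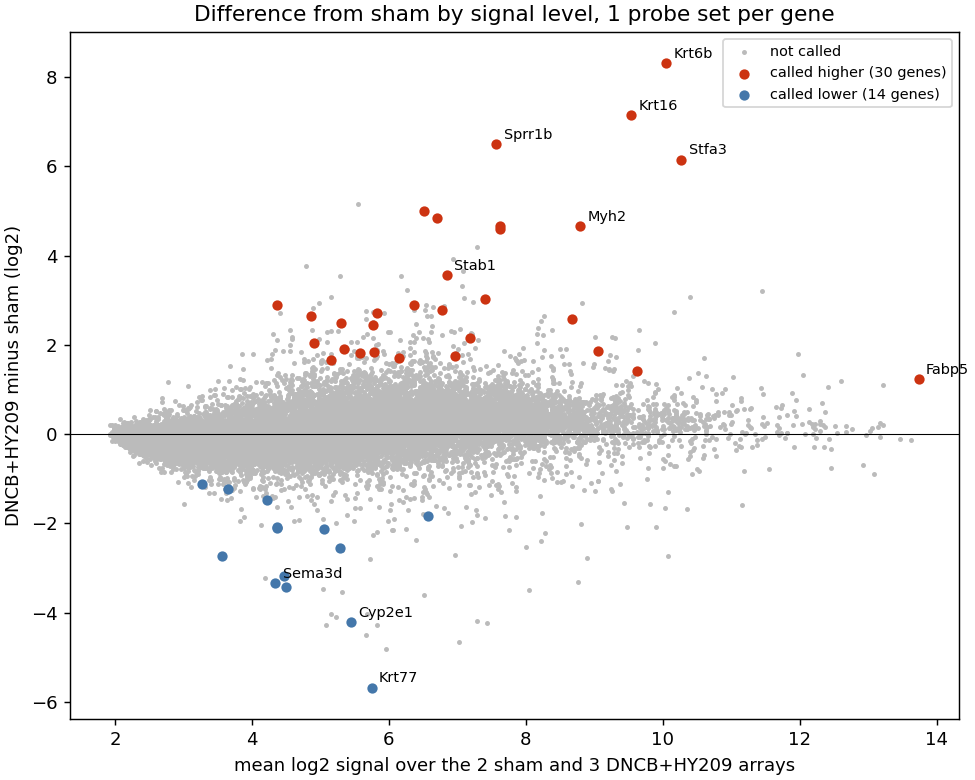
Each point is 1 gene, with its mean log2 signal over the 2 sham and 3 DNCB+HY209 arrays on the horizontal axis and the log2 difference, DNCB+HY209 minus sham, on the vertical axis. The 30 genes called higher reach 8.30 (Krt6b) and the 14 called lower reach -5.68 (Krt77), and grey points are genes that were not called.

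The number of calls depended on single arrays, although all 44 genes kept their sign in every fit that held them. Without DNCB+HY209 replicate 1, 214 genes passed, the 44 among them. Without DNCB+HY209 replicate 2 or 3, 7 and 9 passed, and without sham replicate 1 or 2, 8 and 12. Arrays outside the contrast counted through the shared estimate of spread: 21, 74 and 27 genes passed without DNCB replicate 1, 2 or 3. Krt6b, Krt16, Stfa3, Stab1 and Sema3d, 5 genes in all, passed in each of the 8 leave-outs. Holding the spike-in level constant in the fit, 8 genes passed: Krt6b, Krt16, Sprr1b, Stfa3, Klk13, Stab1, Nav1 and Sema3d. DNCB+HY209 replicate 1 was the lowest of the gel-treated arrays for 28 of the 30 genes called higher. For 7 of the higher genes (Sprr1b, S100a9, 2610528A11Rik, Oasl2, Slfn4, Samd9l and Nav1) the sham mean lay below every array's median, near the floor of the measurement, so the size of their differences is uncertain and may be understated. In bulk skin, a change in the number of cells of a type and a change in RNA per cell cannot be told apart.

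Among the stress keratins, Krt6b read 4.14 and 5.99 on the sham arrays and 12.54, 13.67 and 13.90 on the gel-treated arrays, a difference of 8.30 (SE 0.52, 95% interval 7.15 to 9.46, limma adjusted p = 0.000208). Its partner keratin Krt16 read 4.88 and 5.64 against 11.34, 12.74 and 13.11 (7.14, SE 0.49, adjusted p = 0.000293). Both were near the array median in sham and among the bright transcripts of treated skin, and the groups lay far apart. Krt6a, a near-identical copy whose transcripts may share signal with Krt6b, was 8.60 and 10.45 in sham and 11.63, 13.25 and 13.34 after the gel, a difference of 3.21 that did not pass (adjusted p = 0.0772).

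Sprr1b, cross-linked into the cornified envelope, read 4.52 and 2.82 in sham and 8.92, 10.32 and 11.24 in gel-treated skin (6.49, SE 0.78, adjusted p = 0.0179). Stfa3, a stefin that blocks cathepsins, read 6.16 and 6.99 against 11.79, 13.15 and 13.23 (6.15, SE 0.41, adjusted p = 0.000248). S100a8 and S100a9 encode the subunits of calprotectin, an alarm protein of keratinocytes and neutrophils. S100a8 read 5.22 and 4.42 against 8.08, 9.88 and 10.52 (4.67, SE 0.66, adjusted p = 0.0341), and S100a9 3.32 and 4.28 against 7.24, 9.01 and 9.65 (4.84, SE 0.73, adjusted p = 0.0397). For both subunits replicate 1 was the lowest gel-treated array and still above both sham arrays.

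Further epithelial genes rose with them. 2610528A11Rik, which encodes the secreted ligand of the receptor GPR15, read 3.30 and 3.74 in sham and 6.59, 9.37 and 9.56 after the gel (4.99, adjusted p = 0.0392), with replicate 1 well below the other two. Klk13, a kallikrein serine protease, read 4.76 and 4.96 against 8.57, 9.53 and 10.28 (4.60, SE 0.45, adjusted p = 0.00583). The phospholipase gene Pla2g4e was 2.89 higher and the carbonic anhydrase gene Car12 2.78 higher. Fabp5, the epidermal fatty acid binding protein, was already 13.21 and 12.79 in sham and rose by 1.23, to 13.99, 14.41 and 14.29. The 3 probe sets of Car12 ran from -0.71 to 2.78, while those of Fabp5, the 1 call among 11 sebaceous gland genes, differed by 1.23 and 2.33.

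The hyperproliferative and alarm keratinocyte list held 33 measured genes, of which 6 were called higher and 0 lower, against 0.242% of all genes called. Its median difference from sham was 1.22, against 0.03 over all genes. By sign, 26 members were higher and 7 lower. At an unadjusted limma p under 0.05, which 17.6% of all genes reached, 18 were higher and 2 lower. The list's other 27 members did not pass. Higher ones among them were Sprr2h (4.18, adjusted p = 0.0809), Gjb2 (2.34, adjusted p = 0.148), Krt17 (1.19, adjusted p = 0.241) and the antimicrobial gene Lcn2 (1.80, adjusted p = 0.339). The list's mean signal was 5.09 and 5.21 on the sham arrays, 6.50, 7.19 and 7.79 on the gel-treated arrays and 7.55, 8.12 and 6.90 on the DNCB arrays. In the protease and stefin list Stfa3 was the 1 call among 11, and cathepsin S (Ctss, 2.25, adjusted p = 0.051) and cathepsin C (Ctsc, 2.17, adjusted p = 0.131) did not pass.

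S100a8, S100a9 and Stfa3 are also on the neutrophil list, where they were the 3 calls among 19 measured genes. At an unadjusted limma p under 0.05, which 17.6% of all genes reached, 4 members were higher and 2 lower. No overlap between the groups was seen for 5 higher and 4 lower members, and for 39.1% of all genes. Stfa2l1, another stefin, differed by 2.94 (adjusted p = 0.136), the decoy receptor gene Il1r2 by -1.47 (adjusted p = 0.236) and the gelatinase gene Mmp9 by 0.80 (adjusted p = 0.447). Csf3r read 4.54 and 4.51 in sham and 4.45, 4.47 and 4.73 after the gel, Cxcr2 3.97 and 4.25 against 4.35, 4.0 and 4.0, and the granule genes Mpo, Elane and Ltf differed by 0.11, -0.25 and -0.04. The list's median difference was 0.01, its mean signal was 4.34 and 4.34 in sham and 4.90, 5.24 and 5.54 after the gel, and the part of neutrophils in the calprotectin and Stfa3 results was not tested.

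Cornification itself gave less. Of 33 measured genes of the cornified envelope and terminal differentiation, 0 were called higher and 1, Krt77, lower, with a median difference of 0.36 that becomes -0.45 when the spike-in level is held as a covariate. Filaggrin (Flg), whose loss predisposes to eczema, was 3.65 higher without passing (adjusted p = 0.212), loricrin (Lor) -0.60 (adjusted p = 0.862) and involucrin (Ivl) 0.36 (adjusted p = 0.803). Of 20 barrier lipid genes 0 were called (median 0.37). The basal keratinocyte list had 0 of 12 called, Krt15 coming nearest at -2.73 (adjusted p = 0.071).

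**Figure D2:**
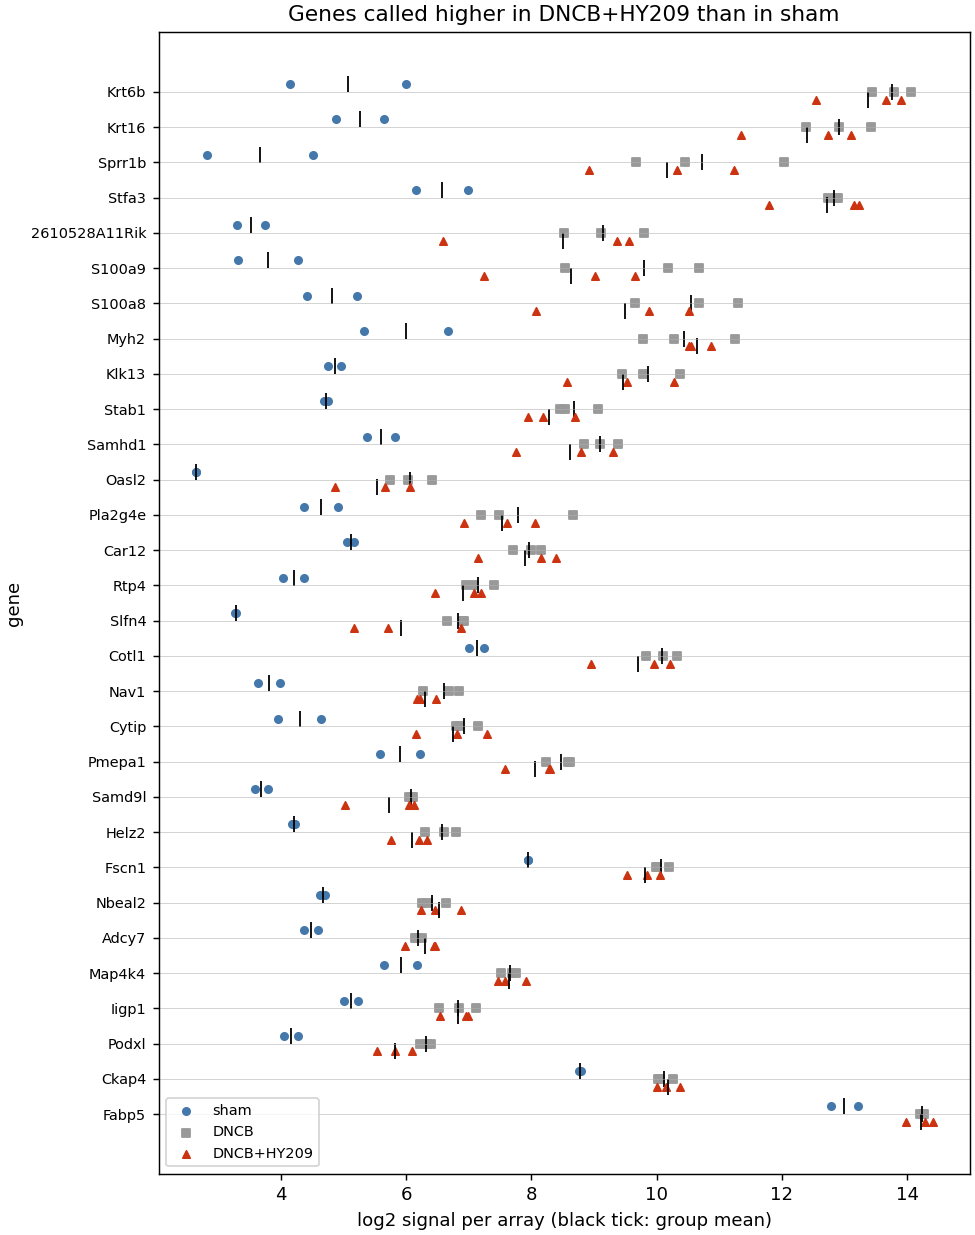
Log2 signal per array (horizontal axis) for the 30 genes called higher in DNCB+HY209 than in sham skin (vertical axis), with 2 sham, 3 DNCB and 3 DNCB+HY209 arrays as circles, squares and triangles and each group mean as a black tick. Every triangle lies to the right of both circles, and most lie within or a little below the squares.

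Interferon-induced genes formed the next group, named here after their values were seen. Oasl2, a relative of the antiviral oligoadenylate synthetases, read 2.64 and 2.64 in sham and 4.86, 5.67 and 6.06 after the gel (2.89, SE 0.34, adjusted p = 0.0154). Rtp4, an interferon-induced chaperone that restrains antiviral sensing, read 4.04 and 4.37 against 6.46, 7.19 and 7.09 (2.71, SE 0.29, adjusted p = 0.00886). Iigp1, an interferon-induced GTPase that attacks vacuoles of intracellular pathogens, rose by 1.71, from 5.01 and 5.23 to 6.54, 6.98 and 6.96. All gel-treated arrays lay above both sham arrays for each.

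Slfn4, a schlafen family gene of myeloid cells, read 3.29 and 3.26 in sham and 5.16, 5.71 and 6.87 in gel-treated skin (2.64, SE 0.41, adjusted p = 0.0447). Samhd1, which degrades the deoxynucleotides that retroviruses need, was 3.02 higher at its brightest probe set, 1 of 5 that ran from 0.27 to 3.02. Samd9l, an antiviral translation inhibitor, was 2.04 higher and the coactivator gene Helz2 1.90 higher. Rtp4 had a second probe set with a difference of 0.00, so the probe sets of that gene disagree.

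Of 22 measured type I interferon genes, 2 were called higher and 0 lower (median 0.80), and the interferon gamma list had 1 call, Iigp1, among 18 (median 0.87). Over all genes 0.242% were called and the median was 0.03. In these lists 15 and 10 members were higher, and 0 lower, at an unadjusted limma p under 0.05. That level was reached by 17.6% of all genes. Uncalled members included Ifih1 (1.69, adjusted p = 0.0683), Oas1a (1.94, adjusted p = 0.0683), Ifit1 (2.13, adjusted p = 0.106), Igtp (2.24, adjusted p = 0.064) and the T cell chemoattractant Cxcl9 (2.77, adjusted p = 0.064). The type I list's mean signal was 4.48 and 4.56 in sham and 5.26, 5.54 and 5.71 after the gel. Ifng itself was near the bottom of the scale, 2.54 and 2.41 against 2.63, 2.68 and 2.41.

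Of the genes called higher that remain, Fscn1 and Myh2 alone are on a fixed list, so the others are described one by one. Stab1, a scavenger receptor of macrophages and specialised endothelium, read 4.69 and 4.75 in sham and 7.94, 8.19 and 8.70 after the gel (3.56, SE 0.30, adjusted p = 0.00149). Cytip, which controls adhesion of leukocytes, was 2.45 higher, the actin binding protein genes Cotl1 and Fscn1 2.59 and 1.86, and Podxl, a sialomucin of the vascular lining, 1.65. Nav1, a microtubule-associated guidance protein, was 2.48 higher (adjusted p = 0.0077). Over all settings the Nav1 difference ranged from 0.80 to 2.65, and averaging the probe sets of the gene was among the settings that lost its call. Pmepa1, a brake on TGF-beta signalling, rose by 2.14, Map4k4, a kinase of the stress pathways, by 1.74, and Adcy7, an adenylyl cyclase, by 1.82. Nbeal2, needed for platelet granules, rose by 1.85 and Ckap4, an endoplasmic reticulum membrane protein, by 1.41. For Podxl, Nbeal2, Adcy7, Cytip and Fscn1 another probe set of the gene had a difference below 0, between -0.37 and -0.06, and the probe sets used for S100a8, Cotl1, Ckap4, Adcy7 and Map4k4 are of kinds that may match several transcripts.

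The cell type lists around these genes held few calls. Macrophage and monocyte genes had 0 of 21 called (median 0.39), with Aif1 at 1.46 (adjusted p = 0.142) and the resident marker Adgre1 at 0.22. Of 20 endothelial and lymphatic genes 0 were called (median 0.64), among them Cdh5, the adherens junction cadherin of vessels (1.20, adjusted p = 0.183). Langerhans and dendritic cell genes had 1 of 16 called, Fscn1, with a median of 0.08, and T cell (14 genes, median -0.04), mast cell (12, -0.03) and B cell genes (9, -0.03) had 0. The signs of these last medians turn with the scaling of the arrays, as does that of the type 2 list. Fibroblast and matrix genes had 0 of 27 called, with a median of 0.08 that becomes -0.39 with the spike-in covariate.

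Cytokine lists gave no call. Of 22 type 2 genes 0 passed (median -0.03): Il4 differed by -0.05, Il13 by -0.02, Ccl17 by -0.04, the alarm cytokine Tslp by 1.99 (adjusted p = 0.212) and Il33 by 0.97 (adjusted p = 0.385). Of 26 NF-kB and innate cytokine genes 0 passed (median 0.23), with Il1b at 0.58 (adjusted p = 0.399), Tnf at -0.52 and Icam1 at 1.79 (adjusted p = 0.0847). The P2X7, inflammasome and bile acid receptor list, which stands nearest to the compound's known action, had 0 of 14 called (median 0.21), including P2rx7 (-0.35), Nlrp3 (0.15), Casp1 (1.20, adjusted p = 0.201) and Pycard (1.17, adjusted p = 0.343). Several of these transcripts lay at or below the array medians in both groups, where a change could be missed.

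**Figure D3:**
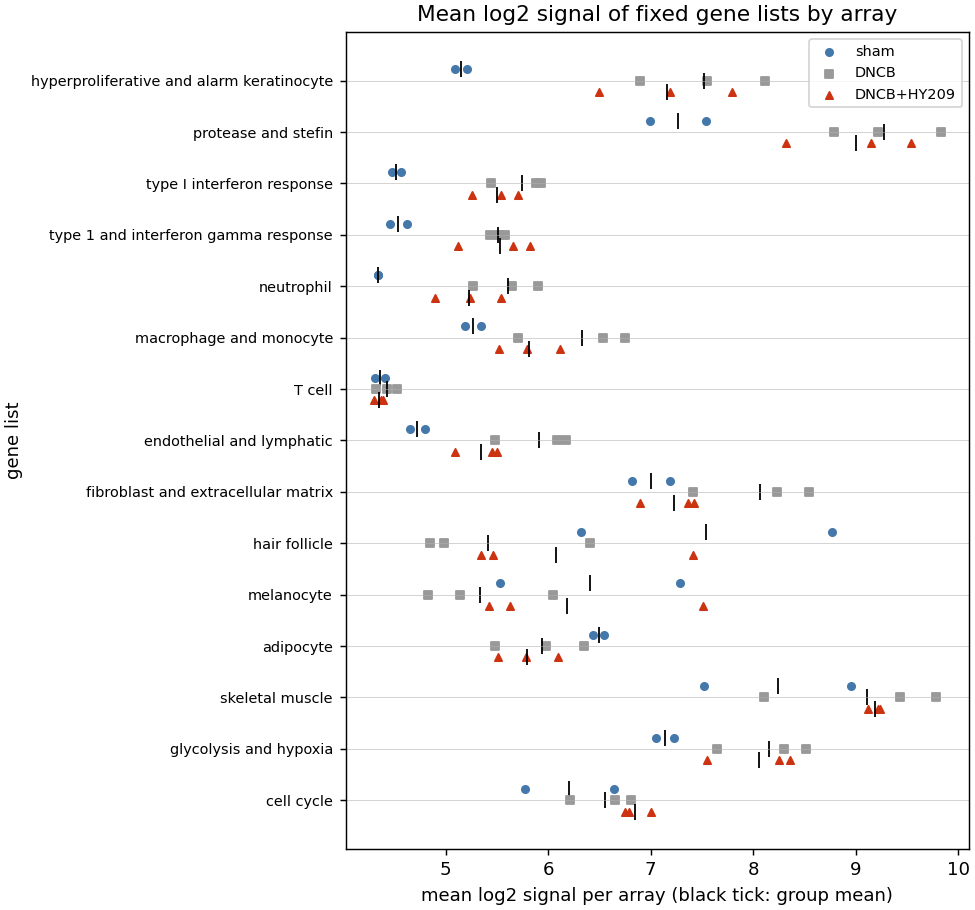
Mean log2 signal per array (horizontal axis) of fixed gene lists (vertical axis) in 2 sham, 3 DNCB and 3 DNCB+HY209 arrays, with each group mean as a black tick. The keratinocyte, stefin, interferon, neutrophil, macrophage, endothelial, muscle, glycolysis and cell cycle lists lie higher on every gel-treated array than on both sham arrays. The neutrophil list holds S100a8, S100a9 and Stfa3, and its median difference was 0.01, with 10 members higher and 9 lower by sign. The adipocyte list lies lower on every gel-treated array, and the T cell and fibroblast lists overlap. For hair follicle and melanocyte genes sham replicate 1 and DNCB+HY209 replicate 1 stand together at the high end.

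Myh2, the myosin heavy chain of fast oxidative muscle fibres, was 5.32 and 6.67 in sham and 10.87, 10.52 and 10.55 after the gel (4.66, SE 0.46, adjusted p = 0.0061). It was the 1 call among 30 skeletal muscle genes, whose median difference was 1.01, with Mb at 3.06 (adjusted p = 0.17), Actn2 at 2.93 (adjusted p = 0.161) and Ldb3 at 2.03 (adjusted p = 0.123). The muscle list's mean signal was 7.52 and 8.96 on the sham arrays against 9.22, 9.12 and 9.24 on the gel-treated arrays and 9.78, 9.43 and 8.11 on the DNCB arrays. Muscle genes were thus bright in all skin samples and lowest in sham replicate 1. In a fit with that level as covariate, chosen with the values known, the Myh2 difference was 4.0 (adjusted p = 0.0216), though Myh2 is itself on the list. Without sham replicate 1 the Myh2 difference was 3.98 (adjusted p = 0.0515), and with the spike-in covariate 4.37 (adjusted p = 0.0612), so the call was lost while the difference stayed nearly as large. The muscle covariate left 8 genes called in all, 7 of them among the 44.

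Some hair shaft genes were among those called lower. Keratin-associated proteins cross-link the keratins of the hair shaft and are made in the follicle during growth. Krtap1-5, Krtap4-1 and Krtap4-7 were called, together with the gene models Gm11559 and Gm11567, and all 5 lie in one stretch of chromosome 11 in the GRCm38.p6 annotation, in that order, with 7, 1, 14 and 1 protein-coding genes between successive members and 19 between Gm11567 and Krt16. Their promoters are shown because these genes moved together and share a feature the expression values did not use: the letters TATAAA, the core of a TATA box, on the gene's own strand starting 31 or 30 bases before the annotated start. The 120 bases just before each start are printed 5' to 3' from RefSeq on GRCm38.p6, with TATAAA in capitals. In Krtap1-5 a second capital run holds overlapping matches on both strands.

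The lower hair genes are followed by Sprr1b and S100a8, higher genes with the same letters at the same place.
Krtap1-5 (chr11:99581017-99581136, minus strand): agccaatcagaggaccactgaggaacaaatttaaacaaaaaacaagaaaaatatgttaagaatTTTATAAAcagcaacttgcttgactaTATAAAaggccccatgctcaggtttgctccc
Krtap4-1 (chr11:99628240-99628359, minus strand): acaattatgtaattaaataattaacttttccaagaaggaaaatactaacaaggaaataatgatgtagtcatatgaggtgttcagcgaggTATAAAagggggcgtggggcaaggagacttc
Krtap4-7 (chr11:99644090-99644209, minus strand): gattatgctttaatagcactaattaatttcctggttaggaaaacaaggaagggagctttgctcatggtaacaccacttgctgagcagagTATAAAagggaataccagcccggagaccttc
Gm11559 (chr11:99864356-99864475, plus strand): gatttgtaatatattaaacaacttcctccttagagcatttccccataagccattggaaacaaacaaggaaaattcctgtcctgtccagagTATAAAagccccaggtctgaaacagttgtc
Gm11567 (chr11:99879067-99879186, plus strand): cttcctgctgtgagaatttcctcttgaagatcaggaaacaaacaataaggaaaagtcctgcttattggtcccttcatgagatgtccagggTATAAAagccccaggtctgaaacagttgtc
Sprr1b (chr3:92438780-92438899, minus strand): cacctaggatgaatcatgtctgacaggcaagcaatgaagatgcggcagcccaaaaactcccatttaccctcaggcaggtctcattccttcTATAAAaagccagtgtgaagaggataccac
S100a8 (chr3:90668951-90669070, plus strand): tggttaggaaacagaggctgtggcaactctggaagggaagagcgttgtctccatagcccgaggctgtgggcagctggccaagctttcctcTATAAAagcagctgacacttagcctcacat

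RefSeq windows of the 250 bases before the start were found for 21 of the 30 higher and 11 of the 14 lower genes. TATAAA beginning 20 to 40 bases before the start, on the gene's strand, was present in 6 of the 11 lower genes (54.5%). These are the hair cluster genes and Cyp2e1. The same held for 4 of the 21 higher genes and 650 of all 27025 genes with a window (2.41%). As neighbours in one cluster, the hair genes do not count as separate observations, and the share among other Krtap genes was not counted. The core of the interferon-stimulated response element (GAAA, any pair of bases, GAAA) was sought on either strand. It was present in 3 of 21 higher genes (Nav1, Cytip and 2610528A11Rik), 1 of 11 lower genes and 3.46% of all genes with a window. The AP-1 letters TGANTCA were present in 3 of 21 (Sprr1b, Adcy7 and Slfn4), 1 of 11 and 7.82% of all genes with a window. These are matches of letters in short windows and describe neither binding nor a cause.

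Krtap1-5 read 7.45 and 5.64 in sham and 4.09, 2.67 and 2.59 after the gel (-3.43, SE 0.54, adjusted p = 0.0463). Krtap4-1 read 7.10 and 5.63 against 4.17, 2.70 and 2.69 (-3.18, SE 0.49, adjusted p = 0.0445), and Krtap4-7 5.75 and 5.47 against 3.85, 3.24 and 3.47 (-2.09, SE 0.23, adjusted p = 0.0109). In sham and in gel-treated skin alike, replicate 1 was the highest for all 3. Gm11559 was -2.74 and Gm11567 -1.22 from sham. Of 38 measured Krtap genes, counted after their values were seen, 3 were called and all 38 were lower by sign, with a median of -1.94. Over all genes 0.0770% were called lower and the median was 0.03, while the share lower by sign was not counted. Uncalled members included Krtap14 (-4.10, adjusted p = 0.115), Krtap9-3 (-3.22, adjusted p = 0.109) and Krtap3-1 (-1.90, adjusted p = 0.0875).

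Hair follicle genes at large varied between the same arrays. The hair follicle list does not hold the called genes of the hair cluster. It does hold other Krtap genes, among them the uncalled members named above. Its mean signal was 8.77 and 6.32 in sham, 7.41, 5.35 and 5.46 after the gel and 4.85, 4.98 and 6.41 in DNCB skin. Sham and gel-treated arrays thus overlapped. Of the list's 35 genes 0 were called, 32 were lower by sign and the median difference was -1.43, against 0.03 over all genes. The share of all genes lower by sign was not counted. The part of follicle content in the Krtap results was not tested beyond a fit that holds the list's level as a covariate. That level rests in part on genes of the same Krtap family. In that fit, chosen after the data were seen, Krtap1-5 (-2.48, adjusted p = 0.015), Krtap4-1 (-2.32, adjusted p = 0.015), Krtap4-7 (-1.82, adjusted p = 0.0239) and Gm11559 (-2.19, adjusted p = 0.0101) remained called and Gm11567 did not (-1.16, adjusted p = 0.148). Melanocyte genes, active in the growing follicle, followed the same arrays, with a list mean of 7.29 and 5.53 in sham and 7.51, 5.42 and 5.63 after the gel, and 0 of 12 were called.

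Outside the hair cluster, Krt77, a type II keratin of the epidermis, gave the largest decrease among called genes, from 10.61 and 7.71 in sham to 3.04, 3.22 and 4.18 (-5.68, SE 0.74, adjusted p = 0.0249). The sham arrays differed by more than the gel-treated arrays did, and even the lower one was well above them. With the hair follicle level as a covariate the difference was -5.23 and no longer called (adjusted p = 0.0751). Krt77 and Krt6b lie in the same keratin cluster, with 7 protein-coding genes between them, and moved in opposite directions. Sema3d, a secreted guidance cue, fell from 6.64 and 6.05 to 2.87, 2.99 and 3.14 (-3.34, SE 0.21, adjusted p = 0.000208), and both of its probe sets were called, the other at -1.30.

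Metabolic and stromal genes completed the decreases. Cyp2e1, a cytochrome P450 that oxidises ethanol and small solvents, fell from 8.23 and 7.71 to 3.95, 3.60 and 3.70 (-4.22, SE 0.63, adjusted p = 0.039), and Cyp2f2, which oxidises aromatic compounds, from 6.81 and 6.82 to 4.27, 3.79 and 4.69 (-2.56, SE 0.37, adjusted p = 0.035). Scara5, a ferritin receptor of stromal cells, read 6.22 and 6.42 against 4.43, 3.96 and 4.19 (-2.13, adjusted p = 0.0154), but its other probe set differed by 0.01. The anion transporter gene Slc26a7 differed by -2.10, the mucin-like gene Fcgbp by -1.84, the carboxypeptidase-like gene Cpxm2 by -1.48 and the leukotriene receptor gene Cysltr1 by -1.13. For 11 of the 14 lower genes the gel-treated mean lay below every array's median, near the floor of the measurement, so that the size of those decreases may be understated. Adipocyte genes had 0 of 12 called, with Adipoq, the fat cell hormone adiponectin, at -3.55 (adjusted p = 0.109) and Retn, resistin, at -2.27 (adjusted p = 0.0693).

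**Figure D4:**
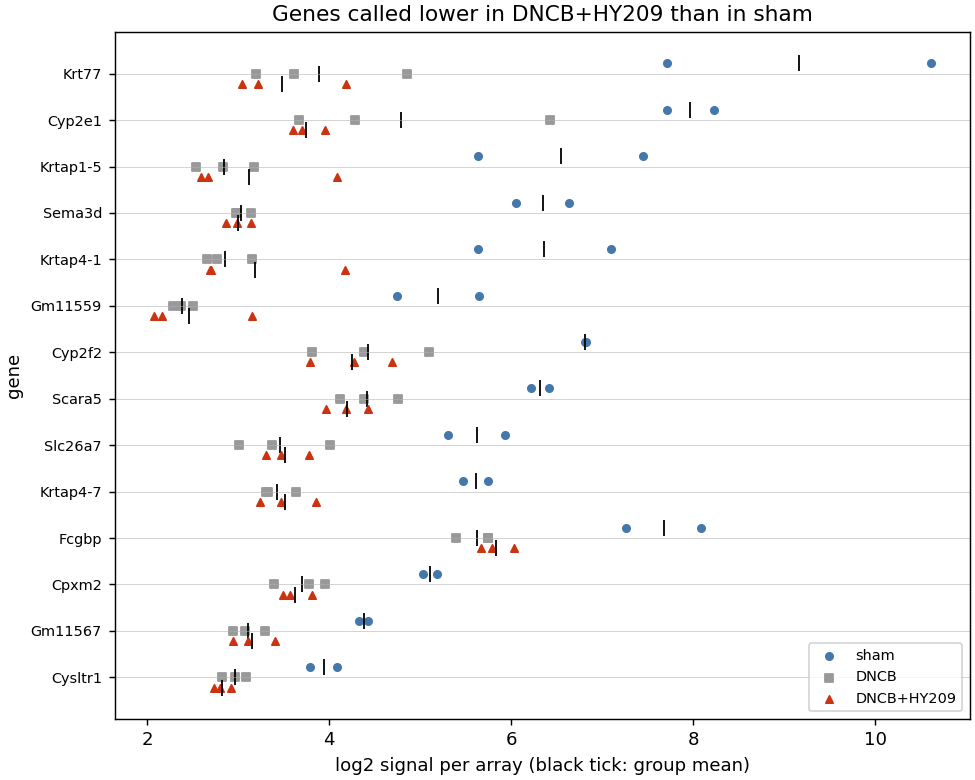
Log2 signal per array (horizontal axis) for the 14 genes called lower in DNCB+HY209 than in sham skin (vertical axis), with 2 sham, 3 DNCB and 3 DNCB+HY209 arrays as circles, squares and triangles and each group mean as a black tick. Every triangle lies to the left of both circles, and for Krtap1-5 and Krtap4-1 the triangle at 4.09 or 4.17 is replicate 1.

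Energy and growth lists gave no call either. Of 19 glycolysis and hypoxia genes 0 passed (median 0.89), with the glucose transporter Slc2a1 at 2.04 (adjusted p = 0.0837) and hexokinase Hk2 at 1.85 (adjusted p = 0.101). Cell cycle genes had 0 of 33 called and a median of 0.70, with Rrm2, the ribonucleotide reductase subunit, at 1.52 (adjusted p = 0.172) and Birc5 at 1.32 (adjusted p = 0.188). The list's mean was 6.64 and 5.77 in sham and 6.75, 7.00 and 6.79 after the gel. At an unadjusted limma p under 0.05, which 17.6% of all genes reached, the glycolysis list had 10 members higher and 0 lower, the cell cycle and endothelial lists 10 and 0 each, macrophage genes 6 and 0, fibroblast genes 7 and 5, NF-kB genes 6 and 1, type 2 genes 3 and 4, adipocyte genes 1 and 6, hair follicle genes 1 and 12, and T, mast and B cell genes 0 and 0. Over all 34 lists, 9 had at least 1 called member and 25 had 0.

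Whether the gel-treated skin differed from DNCB skin was tested directly in the same fit, since both comparisons with sham share the sham arrays. Over all probe sets 0 were called (0.00%), with 686 at an unadjusted p under 0.05 (1.52%). Against sham, DNCB skin had 128 genes called (0.704%). The 44 genes were chosen on the gel-treated arrays, so their difference from DNCB skin is given as a description. For the 30 higher genes the median difference from sham was 2.68 in gel-treated and 2.95 in DNCB skin, and for the 14 lower genes -2.35 and -2.28. The gel-treated mean was below the DNCB mean for 26 of the 30 higher genes, with a median of -0.37, and for 7 of the 14 lower genes, with a median of 0.01. DNCB+HY209 replicate 1 was the lowest gel-treated array for 28 of those 30 and pulled their gel-treated means down. For Krt6b the gel-treated arrays read 12.54, 13.67 and 13.90 and the DNCB arrays 13.79, 14.06 and 13.44. Whether the shift holds without replicate 1 was not tested.

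Intervals around these differences were wide for the most changed genes. Krt6b differed from DNCB skin by -0.39 (95% interval -1.42 to 0.64), Krt16 by -0.51 (-1.49 to 0.47), Stfa3 by -0.10 (-0.91 to 0.70) and S100a9 by -1.17 (-2.62 to 0.28). In S100a9 the DNCB arrays read 10.19, 10.68 and 8.54 and the gel-treated arrays 7.24, 9.01 and 9.65, so the groups overlapped. Sema3d had a narrower interval, at -0.04 (-0.46 to 0.38). Only Slfn4 (-0.92, -1.73 to -0.11, unadjusted p = 0.03) and Podxl (-0.50, -0.97 to -0.03, unadjusted p = 0.0407) among the 44 had an interval without 0, and after adjustment neither passed.

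**Figure D5:**
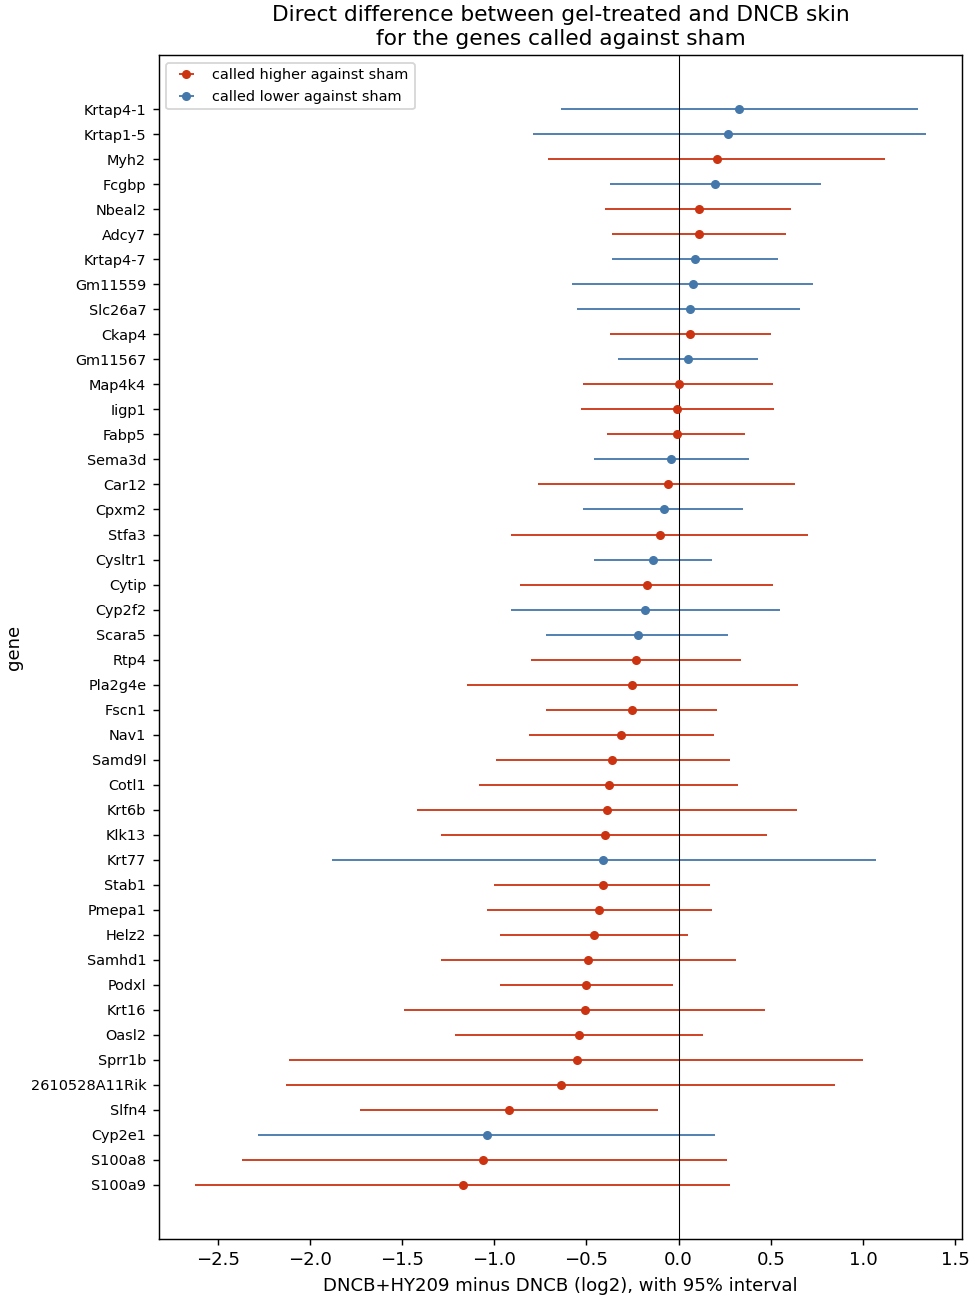
Log2 difference between DNCB+HY209 and DNCB skin (horizontal axis) with its 95% interval for each of the 44 genes called against sham (vertical axis), red for genes called higher and blue for genes called lower. The intervals of 42 genes include 0, and those of Slfn4 and Podxl do not.

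Matrix and vessel lists had lower medians in gel-treated than in DNCB skin, without a call. The fibroblast and matrix list had a median of 0.08 from sham after the gel, 1.11 in DNCB skin and -0.88 between them, and the endothelial list 0.64, 1.23 and -0.55. The groups overlapped: the fibroblast list's mean signal was 8.23, 8.55 and 7.41 in DNCB and 6.90, 7.36 and 7.42 in gel-treated skin, and the endothelial list's 6.09, 6.17 and 5.48 against 5.09, 5.45 and 5.50. DNCB replicates 1 and 2 thus lay above all gel-treated arrays, and replicate 3 lay among them. Tenascin C (Tnc), a matrix protein of wounds, was 2.85 from sham after the gel (adjusted p = 0.141) and 4.0 in DNCB skin, and Cdh5 1.20 and 2.20. The fibrillar collagen genes Col3a1 and Col1a2 had lower means after the gel than in sham, but neither passed (limma adjusted p = 0.298 and 0.136). Col3a1 read 11.14 and 12.20 in sham and 10.46, 11.22 and 10.88 after the gel, so its arrays overlapped. Col3a1 differed from sham by -0.82 after the gel and 0.27 in DNCB skin, and Col1a2 by -1.60 and -0.62. The 3 probe sets of Col1a2 ran from -1.60 to 0.66 after the gel. The keratinocyte list's corresponding medians were 1.22, 1.99 and -0.29. Hair follicle genes were -1.43, -1.97 and 0.77, with DNCB+HY209 replicate 1 at 7.41 and the other gel-treated arrays at 5.35 and 5.46, so that 1 array carried most of the last value.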

How the data were processed

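RNA of 8 whole-skin samples (2 sham, 3 DNCB, 3 DNCB+HY209) was measured on Affymetrix mouse arrays. The table holds log2 signals deposited by the authors. Affymetrix Expression Console and MAS5 are named per the submitters' processing notes, with no word in the sources used here on which step each served. The labels name a smaller array than the 45101 probe sets in the table, so genes were named from the platform annotation: 34945 probe sets had 1 symbol, 932 several and 9160 none listed. The values were used as deposited.

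The 45037 probe sets other than the 64 controls were fitted in R 4.3.3 with limma 3.58.1 (lmFit, eBayes with an intensity trend), with 3 group means over all 8 arrays, two-sided, and Benjamini-Hochberg adjustment over all probe sets at 0.05. SE and 95% intervals come from that fit. Each gene stood as its brightest probe set, by the mean over all 8 arrays. The fit was tested on simulated data. The 34 gene lists were described by counts and medians without a set test.

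Named genes were, by rule, the 10 with the largest difference per direction among called genes without overlap, up to 4 called members of each list, 2 to 4 leading uncalled members, and a fixed set of skin and inflammation genes. The other called genes were added after their values were seen. The members and lists were chosen with earlier results of these data known. The number of arrays limits the precision. Alternatives covered scaling, filters, probe set rules, the variance model, covariates, the replicate number as a block and leaving out each array.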

Additional observations from a re-analysis of the deposited data

How the results depend on the processing

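Probe sets called against sham (70 in all, 50 higher, 20 lower, 44 genes) moved to 129, 86, 43 and 81 with quantile normalization, 40, 29, 11 and 26 with arrays centred on their median, 31, 20, 11 and 19 with only the 5 compared arrays, 9, 8, 1 and 8 with the spike-ins as covariate, and 13, 12, 1 and 10 when tested against a 1.5-fold change. Without the intensity trend 45 were called, 7 of them lower, in 27 genes. With a filter requiring signal above the array median on at least 5 arrays, 5 were called lower and 29 genes in all, as dim probe sets were left out. Averaging the probe sets of each gene left 19 genes. With the log2 Gapdh 3' minus 5' difference as a covariate, 78 probe sets were called, 29 of them lower, in 52 genes. Of those genes 37 were among the 44. Covariates added after the data were seen gave 32 probe sets, 15 higher, and 23 genes for the hair follicle level, and 11, 8, 3 and 8 for the skeletal muscle level. The cause of these shifts was not tested. Leaving out 1 array at a time, the totals ranged from 8 to 351, higher calls from 6 to 268, lower calls from 1 to 83 and genes from 7 to 214.

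The labels tie replicate numbers to nothing shared. Deviations from the group means correlated at -0.05 and 0.11 for same-numbered sham and DNCB+HY209 arrays, where 2 sham arrays cannot settle a pairing, and at 0.25, 0.21 and -0.58 for same-numbered DNCB and DNCB+HY209 arrays, so the samples were treated as unpaired. With the replicate block 12 probe sets were called (9 higher, 3 lower) in 9 genes.

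All 44 genes kept their sign wherever they were fitted, over 23 settings. Of their 999 values 525 stayed on the same side of the threshold, 474 lost the call and 0 reversed. Krt6b, Krt16, Stfa3 and Stab1 were called under all 23, with ranges of 7.38 to 9.23, 6.36 to 7.67, 5.58 to 6.62 and 3.35 to 3.74. Against DNCB skin limma called 0 probe sets in each setting run. With 2 sham arrays, differences below those called here may be missed, and signals near the floor carry little information on size.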
